A study of Flaveria ramosissima and Flaveria robusta and Flaveria sonorensis with 9 samples.

Results

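The low CO2 response of Flaveria robusta, a C3 species of the genus, was examined in newly expanded mature leaves. Plants kept for 4 weeks at a low CO2 level, labelled 100, were set against plants at a control level, labelled 380. The labels write both levels in a unit otherwise used for light, so they are quoted as labelled. Both groups were grown at 22 °C, 70% humidity and 16 h light with 8 h dark, at a light intensity labelled 200. The deposited table gives 3 numbered libraries for each level, which GEO lists as 1 sample. Another 3 species were treated and sampled in the same way, namely F. trinervia, which is C4, and the C3-C4 intermediates F. sonorensis (Type I) and F. ramosissima (Type II). The genes described here are the rows of the table whose mean over the 6 F. robusta libraries was 1 TPM or more. TPM expresses a transcript's abundance as a part of a constant sum for each library. These were 13391 of 29566 rows, or 45.3%, after 8 rows with a repeated ID were left out. The rule used no comparison between CO2 levels. The lowest mean inside it was 1.0 TPM and the highest outside it 0.998 TPM. Of the rows outside it, 5111 had a value above 0 in at least 1 of the 6 libraries and 11056 were listed at 0 in all of them.

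In a C3 leaf, Rubisco fixes CO2 directly in the mesophyll and also accepts oxygen, and the product of that side reaction is recycled through photorespiration. At low CO2 the side reaction gains weight and the supply of carbon falls. C4 plants concentrate CO2 around Rubisco in the bundle sheath, and C3-C4 intermediates recapture photorespired CO2 there. F. robusta stands for the C3 state in this genus.

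All 29566 IDs were the word Gene and a number, and 0 carried a gene name, so changes are described by size, abundance and species, and 4 IDs are named by a fixed rule. What these genes encode, and whether the leaf markers one would look for behaved as the tissue label says, was not analysed here. Whether the 3 libraries are separate plants, and whether a CO2 level had more than 1 growth run, is not stated. The p-values below therefore measure the spread between libraries, and CO2 level and growth run cannot be told apart. TPM holds no read numbers, and sequencing depth is therefore unknown. The F. robusta columns summed to between 91.7% and 92.3% of the fixed total. The libraries of F. ramosissima varied most, with a median residual SD of 0.40 (log2) over genes present in every species, against 0.17 to 0.19 in the other 3 species.

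Transcript abundance of F. robusta leaves separated by CO2 level. On the log2(TPM + 1) scale, Pearson's r across genes was 0.970 to 0.986 between control libraries and 0.979 to 0.984 between low CO2 libraries. Between the CO2 levels it was 0.917 to 0.934, so each of the 9 pairs across levels was less alike than every pair within a level. The first principal component held 68.4% of the variance and placed the control libraries at -44.1, -39.0 and -37.9 and the low CO2 libraries at 39.6, 39.3 and 41.99. The second, with 12.5%, spread the control libraries (30.5, -8.43 and -24.2) more than the low CO2 libraries (7.496, -10.6 and 5.21). The median coefficient of variation over 3 libraries was similar at both levels in each abundance class. It was 18.5% at control and 19.3% at low CO2 in genes of 1 to 10 TPM, and 10.6% at both levels in genes of 1000 TPM and over.

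Low CO2 was accompanied by more and larger falls than rises. With limma on the 6 libraries, 1674 genes were higher (12.5% of those tested) and 2530 lower (18.9%) at low CO2, at a Benjamini-Hochberg adjusted p below 0.05. Together these were 31.4% of the 13391 genes. The called rises had a median of 0.74 (log2) and the called falls of -0.88. A rise of at least 1 was called in 416 genes and a fall of that size in 1035. At 2 or more the counts were 33 and 222. Among the called genes, 57 falls and 0 rises reached 3, and 16 falls reached 4. The largest called rise was 2.88 and the largest called fall -6.03. Most genes stayed close to their control level: 64.9% changed by less than 0.5, and the quartiles of all changes were -0.41 and 0.29. The excess of lower calls depended on scaling. Under quantile normalization the changes of single genes shifted by a median of 0.12. There were 2598 higher and 2277 lower calls, so that 53.3% of the calls were higher in place of 39.8%. Median-ratio scaling shifted the changes by a median of 0.05 and gave 2085 higher and 2464 lower calls. Without control library 2 the calls were 1043 higher and 1811 lower, and without low CO2 library 2 they were 991 and 1858.

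**Figure D1:**
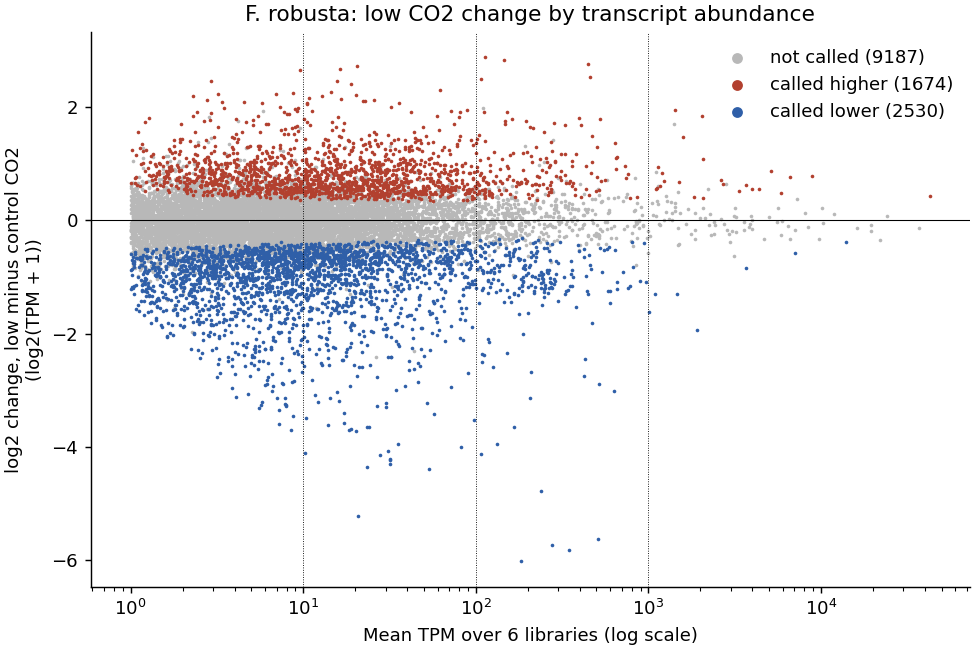
Each point is 1 of the 13391 F. robusta genes, with its mean TPM over 6 libraries on a log axis and its change from control to low CO2 on the log2(TPM + 1) scale. Coloured points are limma calls (1674 higher, 2530 lower), dotted lines mark 10, 100 and 1000 TPM, and the falls reach further (-6.03) than the rises (2.88).

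The 4 named genes show both kinds of change, a large fold change and a large shift of transcript mass. Gene14873 had the largest rise among genes of at least 10 TPM, called by the test and with no overlap between the levels. Its control libraries had 15.3, 40.6 and 26.0 TPM and its low CO2 libraries 134.6, 226 and 237 TPM. The lowest low CO2 library was thus well above the highest control library, and library 1 was the lowest at both levels. The change was 2.88 (SE 0.34, limma adjusted p = 0.000834). Gene26099 had the highest mean TPM over the 6 libraries, though another gene was above it in control libraries 1 and 3, and it gained more TPM than any other called gene. It stood at 33085, 38878 and 36990 TPM in the control libraries and at 44776, 52075 and 49670 TPM in the low CO2 libraries. All low CO2 libraries were above all control libraries, but the log2 change was only 0.43 (SE 0.13, limma adjusted p = 0.0343). The call was lost in 8 of 15 alternatives, with adjusted p between 0.00217 and 0.226, while the change kept its sign in all 15.

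Gene10613 had the largest fall among genes of at least 10 TPM. It went from 531, 234 and 311 TPM in the control libraries to 5.87, 2.0 and 5.82 TPM in the low CO2 libraries, a gap that no library bridged. The change was -6.03 (SE 0.38, limma adjusted p = 7.6e-05). Gene04829 lost more TPM than any other called gene. Its control libraries had 15107, 16455 and 15922 TPM and its low CO2 libraries 10951, 12342 and 13090 TPM, without overlap. The change was -0.39 (SE 0.12, limma adjusted p = 0.0405), and the call was lost in 9 of 15 alternatives (adjusted p from 0.00138 to 0.202) with the sign kept in all 15. Gene14873 and Gene10613 stayed called in all 15.

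**Figure D2:**
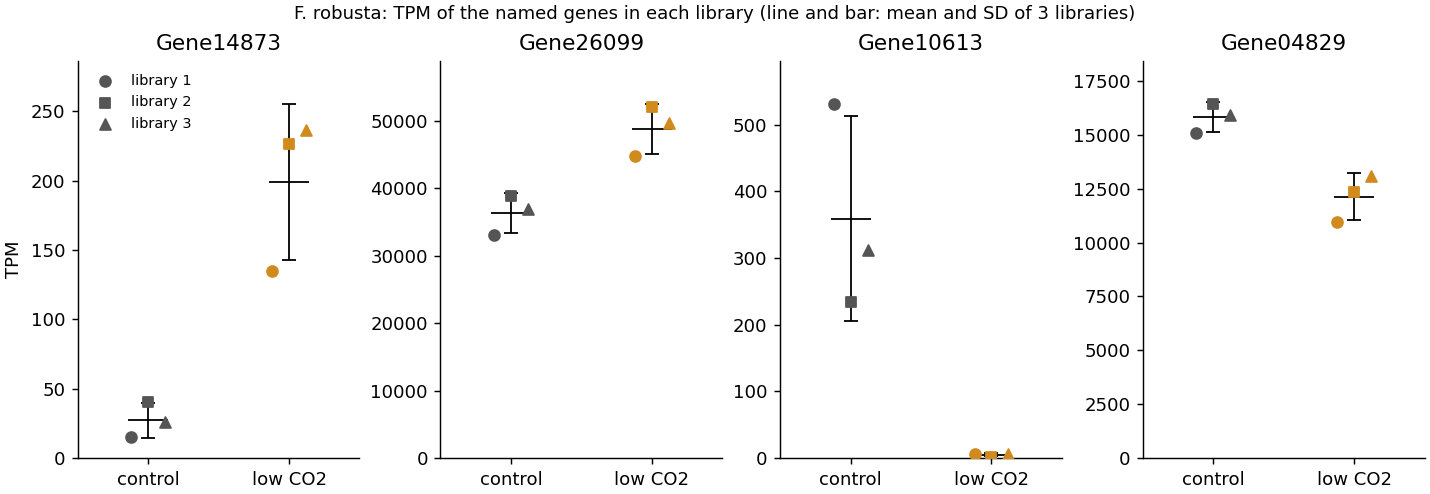
TPM of the 4 named genes in each F. robusta library at control and low CO2 (linear axes from 0, points are libraries 1 to 3, line and bar are the mean and SD of 3 libraries). The levels do not overlap in any panel, and Gene10613 falls from 359 ± 154 to 4.56 ± 2.22 TPM.

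Behind Gene10613 the next falls were of the same kind. Among genes of at least 10 TPM, the 3 that ranked after it took means of 680 ± 344, 546 ± 261 and 1008 ± 495 TPM (SD, n = 3 libraries) down to 10.7 ± 4.13, 9.26 ± 4.62 and 17.99 ± 0.874 TPM. Control library 1 was the highest library in each of these 3 genes and in Gene10613. This did not extend to the 222 called falls of at least 2. In those, control library 1 was the highest control library in 61, library 2 in 73 and library 3 in 88. Control library 1 led in 470 of the 1035 called falls of at least 1, library 2 in 266 and library 3 in 299. The gene ranked next after the 3 above was listed at 0, 0 and 0.32 TPM at low CO2, from 57.9, 30.1 and 36.1 TPM at control. The rises were smaller in fold. After Gene14873, the next at this abundance went from 37.8 ± 17.5 to 253 ± 12.9 TPM. The one after it, from 97.6 ± 35.2 to 794 ± 654 TPM, rested in size on low CO2 library 1 (1548 TPM against 443 and 390 in the other 2), and the one ranked next went from 4.90 ± 2.62 to 36.3 ± 4.87 TPM.

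The libraries of both levels did not overlap in 6316 genes, 47.2% of those measured. In 2687 genes (20.1%) every low CO2 library was above every control library, and in 3629 (27.1%) every one was below. Nearly all called genes were of this kind, namely 1668 of the 1674 rises and 2521 of the 2530 falls, and 15 calls had overlapping libraries. Separation alone was the weaker criterion. It also held for 1019 rises and 1108 falls that were not called, whose median changes were 0.34 and -0.36 and whose nearest libraries lay only 0.08 apart (median, log2, both directions). In separated genes that were called, the nearest libraries of the 2 levels were 0.39 apart for rises and 0.49 for falls. A gap of at least 1 between the nearest libraries was found for 119 rises and 452 falls, and a gap of at least 2 for 2 rises and 90 falls. The widest gap was 2.22 among rises and 5.10 among falls. Of the 7075 genes with overlapping libraries, 56 had a change of at least 1 in size. 

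Changes were found in every abundance class. The classes, by the mean over 6 libraries, held 7559 genes of 1 to 10 TPM, 4875 of 10 to 100, 842 of 100 to 1000 and 115 of 1000 TPM and over. In this order of classes, calls made up 25.2%, 38.8%, 45.1% and 27.0% of the genes. The median residual SD was 0.22, 0.19, 0.19 and 0.16, and its part in the differing shares was not tested. Large changes were most frequent at 100 to 1000 TPM, where 18.3% of genes changed by at least 1 in size. The shares were 10.3% at 1 to 10 TPM, 11.9% at 10 to 100 TPM and 7.83% at 1000 TPM and over. The log2(TPM + 1) scale understates changes of low genes, and these shares of large changes were not repeated on another scale. Falls of at least 2 numbered 102, 100 and 22 in the first 3 classes and rises of that size 11, 17 and 5, and 0 genes of 1000 TPM and over changed by that much.

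The direction of the calls also varied between classes. Genes of 1 to 10 TPM were called higher in 634 and lower in 1268 cases, those of 10 to 100 TPM in 855 and 1036, and those of 100 to 1000 TPM in 161 and 219. In genes of 1000 TPM and over the order was turned, with 24 higher and 7 lower. This last contrast was not stable. After quantile normalization it was 17 and 14, and with classes set by the control mean alone it was 15 and 15 among 113 genes. Median-ratio scaling left it at 19 and 5. The excess of lower calls in the lower classes was not stable either. Quantile normalization gave 1241 higher and 1076 lower calls at 1 to 10 TPM and 1139 and 985 at 10 to 100 TPM, where median-ratio scaling gave 1030 and 985. At 100 to 1000 TPM the quantile counts were 201 and 202. Over all classes, some genes averaged 1 TPM or more at 1 level alone, and such genes had to differ. At control 543 genes reached 1 TPM that did not reach it at low CO2, and 313 of these were called. The opposite held for 267 genes, of which 90 were called. The other 12581 genes reached 1 TPM at both levels, with 1584 called higher and 2217 lower. Complete switches were rare: 4 genes were listed at 0 in every low CO2 library and at 1 TPM or more in every control library, and 2 genes the other way round.

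**Figure D3:**
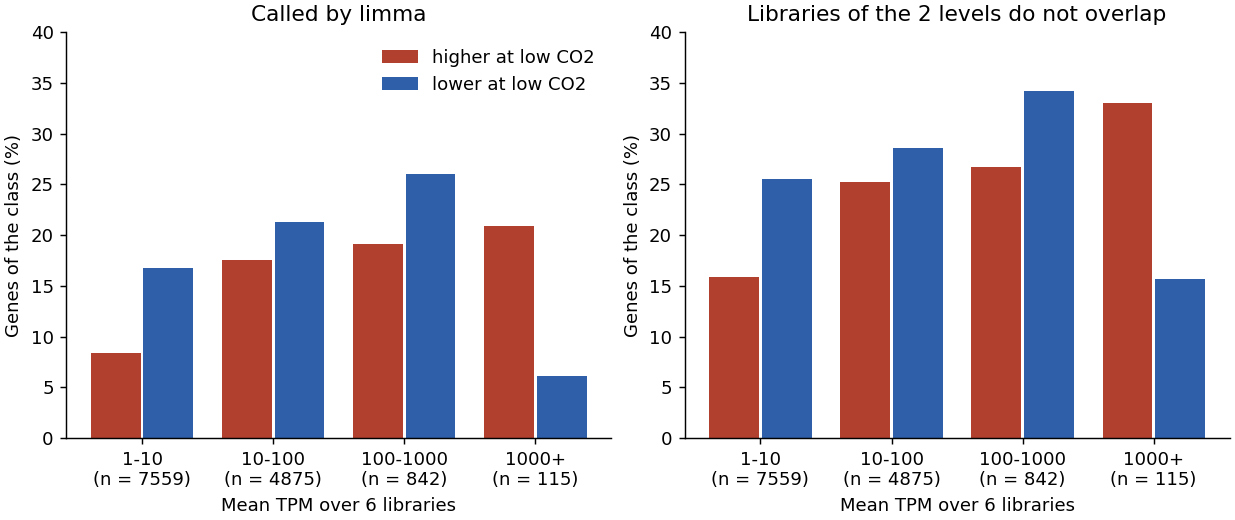
Share of genes in each abundance class (mean TPM over 6 libraries) that limma called higher or lower at low CO2 (left) and whose libraries did not overlap between levels (right). At less than 1000 TPM falls exceed rises on both sides, and rises exceed falls in the class of 1000 TPM and over (24 against 7 calls), a contrast that was 15 against 15 with classes set by the control mean and 17 against 14 after quantile normalization. The excess of lower calls turned as well under quantile normalization at 1 to 10 TPM (1241 higher, 1076 lower) and at 10 to 100 TPM (1139 and 985), and under median-ratio scaling at 10 to 100 TPM (1030 and 985).

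Counted in TPM, called rises and called falls differed in make-up. Over all genes described here, rises and falls summed to 126600 and 128330 TPM, and such closeness follows from the constant sum of TPM. The called rises added 88013 TPM and the called falls took away 79617 TPM. At least 50% of the rise came from 20 genes and of the fall from 86. Genes of 1000 TPM and over supplied 45959 TPM of the called rises and 14045 TPM of the called falls, whereas genes of 100 to 1000 TPM supplied 24871 and 39275 TPM. The classes rest on the mean over both levels, and these sums were not repeated with classes set by the control mean. In the whole library, the 115 most abundant genes held 50.8%, 52.0% and 52.2% of the fixed total in the control libraries and 52.4%, 53.3% and 55.3% in the low CO2 libraries. The genes of 100 to 1000 TPM held 22.8%, 22.4% and 22.1% at control and 21.1%, 21.4% and 21.1% at low CO2. In both cases the levels did not overlap, and in both the exact permutation test gave a two-sided p = 0.1, which is the minimum for 3 against 3 libraries. Adjusted over the 6 values tested, it was 0.3. The share of the 20 most abundant genes was 29.6% ± 0.511 at control and 29.8% ± 1.11 at low CO2 (exact permutation p = 0.8). Among those 20 genes, each with a mean of at least 6618 TPM, 3 were called higher and 2 lower, 17 changed by less than 0.5, and the changes ran from -0.57 to 0.78.

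The same rows were then followed in the other species. By the study's general RNA-seq methods each species had its own genome for read alignment, and the sources used here do not give the way in which genes of different species came to share a row. Of the 13391 genes, 8632 (64.5%) averaged 1 TPM or more in each of the 3 other species, 2522 in 2, 1538 in 1 and 699 in none. The share present in all rose from 51.8% of genes of 1 to 10 TPM to 81.1% at 10 to 100 TPM, and was 80.6% and 73.9% in the upper classes. Calls made up between 29.4% and 32.2% of the genes whatever the number of other species. Called changes of at least 1 made up 17.3% of the 699 genes found in F. robusta alone at this level (34 rises and 87 falls), and 13.3%, 12.9% and 9.27% of those present in 1, 2 and 3 other species. The 699 genes were also low (median 2.54 TPM) and variable (median residual SD 0.30), against 11.4 TPM and 0.19 in the 8632 genes. The part of level and spread in this was not tested. For 193 genes all 18 libraries of the other species were listed at 0, and 36 of these were called higher and 38 lower. No change can be given for such genes elsewhere. Gene14873 was one of them, and Gene10613 was listed at 0 in F. sonorensis and F. trinervia.

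Genes that moved strongly in F. robusta mostly had the same sign of change in the other species. Of the 8632 shared genes, 200 rose and 600 fell by at least 1 in F. robusta with a call. Because they were chosen by their size in F. robusta, smaller medians in species not used for the choice follow in part from the choice, and no ranking of response size between species is drawn. The 200 rises had a median change of 0.52 in F. sonorensis, 0.62 in F. ramosissima and 0.37 in F. trinervia. The 600 falls had medians of -0.62, -0.77 and -0.34 in the same order. Over all 8632 genes the medians were -0.07, -0.07 and 0.02. A fall was shared in sign by 86.5% of the 600 genes in F. sonorensis, by 89.2% in F. ramosissima and by 65.5% in F. trinervia, against 57.1%, 56.7% and 47.7% of all shared genes. A rise was shared by 81.5%, 88.0% and 71.5% of the 200 genes, against 42.9%, 43.3% and 52.3%. In all 3 species together, 125 rises and 342 falls kept their sign, while 8 rises and 17 falls had the opposite sign in each.

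The tests within F. sonorensis and F. trinervia were read against their own backgrounds in the shared genes. F. sonorensis had 106 of the 200 rises (53.0%) and 345 of the 600 falls (57.5%) called in the same direction, where its background was 11.3% higher and 17.6% lower. F. trinervia had 77 rises (38.5%) and 199 falls (33.2%), with a background of 10.3% higher and 11.6% lower. Calls in the opposite direction numbered 11 rises and 24 falls in F. sonorensis and 11 and 33 in F. trinervia. For calls of any size, F. robusta and F. sonorensis had 693 falls in common, 40.7% of the F. robusta and 45.6% of the F. sonorensis falls, and 398 rises, 37.0% and 40.7%. With F. trinervia the common falls were 515, 30.3% of the F. robusta and 51.7% of the F. trinervia falls, and the common rises 329, 30.6% and 37.2%. In F. ramosissima limma called 0 of the 8632 genes in either direction (0%), with 322 rises and 594 falls at an unadjusted p below 0.05, so no calls could be shared with it. Its residual SD was the highest of the species, as given above, and the part of that spread was not tested.

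**Figure D4:**
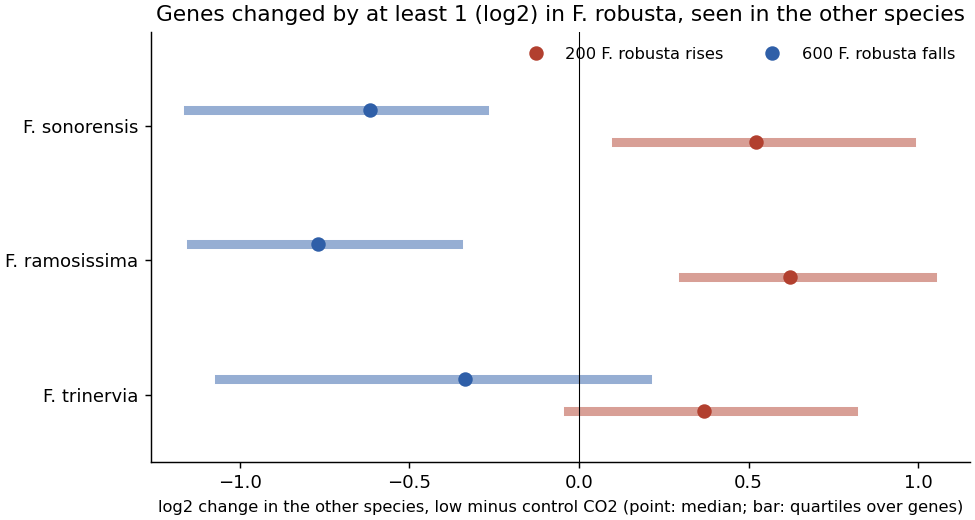
Change at low CO2 (log2, low minus control) in each other species for the 200 genes that rose and the 600 that fell by at least 1 with a call in F. robusta (point, median; bar, quartiles over genes). Medians keep the F. robusta direction in all 3 species, and in F. trinervia the quartiles of both groups include 0.

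The likeness of the change to that of the other species was also described by abundance. Across genes, which are not independent replicates, Pearson's r between the F. robusta change and the mean change of the other species was 0.436 at 1 to 10 TPM (3915 genes), 0.551 at 10 to 100 TPM (3953 genes), 0.755 at 100 to 1000 TPM (679 genes) and 0.799 at 1000 TPM and over (85 genes). Spearman's rho was 0.466, 0.572, 0.747 and 0.751. The median residual SD of these genes in F. robusta was 0.199, 0.177, 0.179 and 0.16 in the same order, and its part was not tested.

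Whether the F. robusta change differed from that of the other species was tested directly, in a limma fit of all 24 libraries. The F. robusta change differed from the mean change of the other 3 species in 583 of the 8632 genes (6.75%), and in 1670 at an unadjusted p below 0.05. It lay above that mean in 201 genes and below it in 382. The sign was opposite in 339 of the 583. In 214 it was the same with the larger change in F. robusta, and in 30 the same with the smaller change there. Of the 583, 146 were not called within F. robusta. Set against 1 species at a time, the difference was called in 473 genes for F. sonorensis (5.48%), 270 for F. ramosissima (3.13%) and 655 for F. trinervia (7.59%). The 3 contrasts share the F. robusta libraries. In 87 genes the F. robusta change lay on the same side of all 3 with a call, above in 24 and below in 63. The count changed with the F. ramosissima libraries. Without that species the difference from the mean of the other 2 was called in 1583 genes, and without F. ramosissima control library 3 alone in 1191. Leaving out 1 F. robusta library lowered the count to between 348 (control library 2) and 470, with 354 without low CO2 library 2 and 366 without control library 3.

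Part of the strong F. robusta changes in shared genes differed from the mean change of the other species. These were 68 of the 200 rises (34.0%) and 196 of the 600 falls (32.7%). Only differences in the direction of the F. robusta change were counted. Of all shared genes, 6.75% differed in either direction, 201 above and 382 below the mean change of the other species. The same F. robusta libraries enter both the call and the difference, so the shares are a description. Without F. ramosissima they were 124 (62.0%) and 298 (49.7%), and without its control library 3 they were 116 and 237. The 68 rises had a median of 1.27 in F. robusta and of 0.17 in the mean of the other species. The 196 falls had medians of -1.59 and -0.16. The mean of the other species was within 0.5 of no change for 54 of these rises and 148 of these falls, and each single species was so for 22 and 44. That mean moved the same way by at least 0.5, though less than F. robusta, in 8 and 35 genes. It moved the opposite way by at least 0.5 in 6 and 13. By the contrasts with single species, 13 of the 68 rises and 50 of the 196 falls differed from all 3. Within F. sonorensis, 18 of these rises and 60 of these falls were called in the same direction. Its opposite calls were 9 and 22. Within F. trinervia the same direction was called in 12 and 17, and the opposite in 10 and 27. By abundance, the differing falls were 31.6% of the strong falls at 1 to 10 TPM, 37.5% at 10 to 100 TPM, 20.8% at 100 to 1000 TPM and 0 of 3 above. The differing rises were 38.1%, 37.0%, 21.6% and 0 of 2. For the strong changes whose difference was not called, the other species had median changes of 0.75 (132 rises, 1.22 in F. robusta) and -0.87 (404 falls, -1.27 in F. robusta). A missed threshold does not show that these changes were alike.

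**Figure D5:**
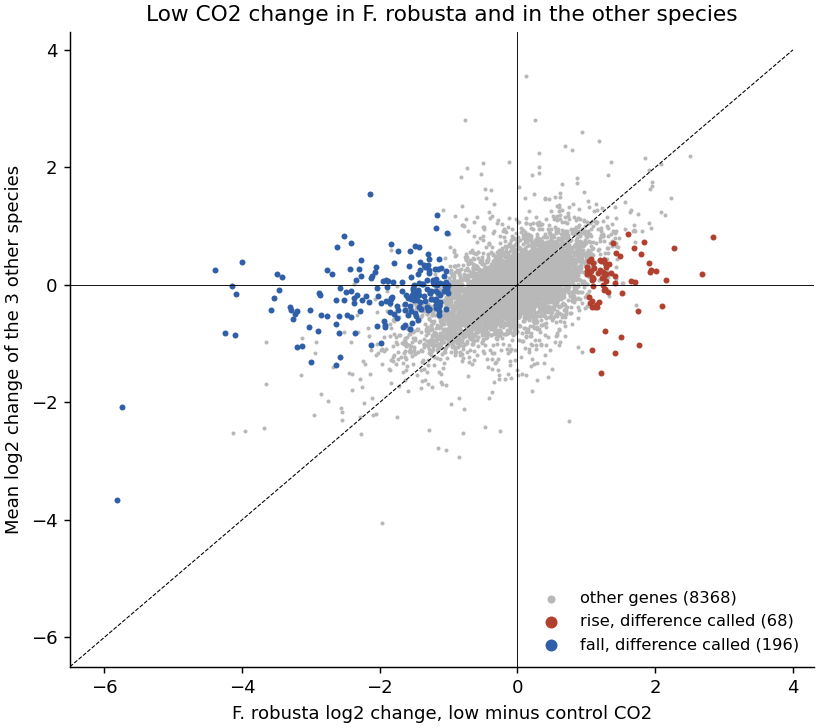
F. robusta change against the mean change of the 3 other species for 8632 shared genes (log2, low minus control CO2, dashed line: equal changes). Coloured are the 68 rises and 196 falls of at least 1 in F. robusta that limma called. In these, limma also called the difference from the mean change of the other species. Most lie near 0 on the vertical axis, and a few far below it fell in the other species as well.

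The 3 falls that differed most were of one pattern. The first had 99.1, 123 and 89.0 TPM in the F. robusta control libraries and 3.45, 3.45 and 5.06 TPM at low CO2. In F. ramosissima the same row had 155.7, 58.0 and 112 TPM at control and 165.7, 111.5 and 136.0 TPM at low CO2, and in F. sonorensis 17.0, 36.9 and 23.8 against 25.4, 41.3 and 18.2 TPM. Neither species lost the transcript as F. robusta did. The F. robusta change was -4.39, and its difference from the mean of the other species was -4.65 (SE 0.68, limma adjusted p = 0.000256, with a call against each of the 3). The other 2 changed by -4.01 and -4.15 in F. robusta, where the mean change of the other species was 0.38 and -0.03. F. trinervia was scattered in all 3 genes, with control values of 10.95, 0.21 and 0.71 TPM in the first. The rise that differed most was modest and met falls elsewhere. It went from 2.21, 2.25 and 0.82 to 5.21, 10.8 and 9.27 TPM in F. robusta, and from 8.0, 8.43 and 8.30 to 5.92, 3.36 and 2.69 TPM in F. sonorensis. The F. robusta change of 1.77 compared with -0.94 in F. sonorensis, -0.30 in F. ramosissima and -1.82 in F. trinervia (difference from their mean 2.79, SE 0.40, limma adjusted p = 0.000215).

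Of the named genes, the 2 abundant ones were present in each species, and neither differed from the mean of the others by the test. Gene26099 changed by 0.31 in F. sonorensis, 0.22 in F. ramosissima and 0.54 in F. trinervia, against 0.43 in F. robusta (difference 0.07, SE 0.15, limma adjusted p = 0.86). Its low CO2 libraries were above all control libraries in F. sonorensis (43499 to 46967 against 36409 to 37567 TPM) and in F. trinervia (6485 to 7514 against 4563 to 5038 TPM), and overlapped in F. ramosissima. Gene04829 was less uniform. It changed by 0.07 in F. sonorensis and 0.22 in F. ramosissima, with overlapping libraries, and by -1.17 in F. trinervia, where the low CO2 libraries (1149 to 1940 TPM) lay below the control libraries (3209 to 3805 TPM). The difference of the F. robusta change from their mean was -0.09 (SE 0.21, limma adjusted p = 0.873). Gene10613, absent from the comparison because it was listed at 0 in F. sonorensis and F. trinervia, had 92.6, 43.9 and 243 TPM at control in F. ramosissima and 6.42, 6.03 and 17.7 TPM at low CO2. All low CO2 libraries there were below all control libraries, as in F. robusta.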

How the data were processed

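Leaf mRNA of 4 Flaveria species at control and low CO2 was sequenced in paired 150 bp reads. The deposited table holds TPM values made by the authors, per the study's RNA-seq methods by alignment with STAR 2.7 to the draft genome of each species and quantification with RSEM 1.3.3. Those methods are stated for these species under other growth conditions and do not mention the low CO2 treatment, so that they cover this table is assumed. The submitters' processing notes name RSEM and edgeR without a role. TPM values share a constant sum, so a gain of abundant genes lowers the others, and counts and depth were not used here.

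Rows with a repeated ID (8) and rows with a mean below 1 TPM over the 6 F. robusta libraries were left out. Values were tested as log2(TPM + 1) with limma 3.58.1 in R 4.3.3 (trended variance, 3 libraries against 3, Benjamini-Hochberg threshold 0.05), so changes of low genes are understated. Differences between species were contrasts in a fit of all 24 libraries over genes averaging 1 TPM or more in each species. Shares per library were compared by two-sided exact permutation tests. The scripts were tested on simulated data. Named genes were, among called genes without overlap, the largest log2 change where the mean was 10 TPM or more and the largest difference in TPM, in each direction. The members and lists were chosen with earlier results of these data known. Alternatives covered the pseudocount, the minimum, scaling, variance trend, library weights, a library block and left-out libraries. A long-read sample of mixed organs was not analysed here.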

Additional observations from a re-analysis of the deposited data

Results flagged for a closer look

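The change at low CO2 differed between F. robusta and the other species by a test of the difference itself (limma, adjusted p below 0.05, 8632 genes). This was so for 583 genes against the mean of the other 3 species, for 473 against F. sonorensis, for 270 against F. ramosissima and for 655 against F. trinervia. These comparisons share the F. robusta libraries, and whether a gene's row holds equivalent genes in each species was not tested.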

How the results depend on the processing

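Limits are the 3 libraries per level, the unknown depth and the spread of F. ramosissima. Where a cause is not given by the construction of the alternative, it was not tested. Pseudocounts of 0.1 and 0.5, median-ratio scaling, no variance trend and no minimum or one of 5 TPM kept the F. robusta counts within 1.5 times of 1674 higher and 2530 lower. Quantile normalization gave 2598 higher and 2277 lower, which turned the excess of lower calls, and library weights 3642 higher and 4138 lower. Leaving out 1 F. robusta library gave 991 to 1632 higher and 1811 to 2366 lower. A replicate block on the library number gave 1498 higher and 2384 lower. Residuals of equal numbers correlated at 0.0832, 0.104 and -0.172, and those of unequal numbers at -0.299 to 0.261. With 3 libraries per level, these values cannot decide whether the numbers pair the libraries. For the differences from the mean of the other species, from F. sonorensis, F. ramosissima and F. trinervia, a minimum of 5 TPM gave 314, 247, 165 and 356 genes (fewer genes tested), and library weights 3302, 3288, 753 and 3715. Without F. ramosissima they were 1583, 1468 and 1665 (mean, F. sonorensis, F. trinervia). For F. ramosissima, median-ratio scaling gave 410 and quantile normalization 472. Leaving out 1 F. robusta or 1 F. ramosissima control library (no others were left out) gave 348 to 1191, 270 to 989, 139 to 807 and 422 to 1177. Strong changes that differed from the mean change of the other species numbered 36 rises and 100 falls at 5 TPM. With library weights they were 157 and 353, and without F. ramosissima 124 and 298. Quantile normalization gave 112 rises. With 1 of the same libraries left out there were 43 to 116 rises and 139 to 237 falls. Gene26099 lost its call in 8 and Gene04829 in 9 of 15 alternatives. The named genes kept their sign in all 15.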
